A study of Mus musculus with 4 samples.

Results

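The genes described here form a cluster of KRAB zinc finger genes on the distal part of chromosome 2. They were chosen by name alone, as every row of the deposited liver tables named 0610010B08Rik or named Gm142, Gm143 or Gm144 followed by exactly 2 more digits. The rule took 12 of the 8797 genes listed, and every one of them was listed in all 4 mice. Liver mRNA was taken from 4 female F1 hybrids at 5 months of age, bred from the inbred strains C57BL/6J (B6) and MSM/Ms (MSM), which come from different subspecies of the house mouse. In the first cross an MSM mother was mated with a B6 father (2 mice, hereafter MSM-mother mice), and in the reciprocal cross a B6 mother was mated with an MSM father (2 mice, hereafter B6-mother mice). All 4 mice therefore carried 1 chromosome set of each strain and received no treatment named in the labels. The labelled difference between the crosses was which parent gave which set. Other differences between the mice, such as litter or day, are not named in the labels. For each mouse the authors deposited the expression level of each gene in FPKM (mapped fragments per transcript length and library size) and, for part of the genes, its B6-allele frequency, that is, among reads assignable to 1 of the 2 alleles, the share from B6.

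KRAB zinc finger proteins (KZFPs) are a large family of DNA-binding repressors. An array of C2H2 zinc fingers reads a DNA sequence, often within a retrotransposon, and the KRAB domain at the other end of the protein recruits the corepressor Trim28 (KAP1), which in turn brings in the histone methyltransferase Setdb1, heterochromatin proteins and histone deacetylases. Their genes lie in tandem clusters that grow by duplication and differ in content between mouse strains. The study considered 4 KZFPs reported to bind preferentially to L1Md_Tf, a group of LINE-1 retrotransposons. In its mapping of published binding data, read density was high around short L1Md_Tf copies for all of them but Gm14406. Gm14295 and Gm14436 are members of the set described here, and Gm14406 and Gm14412 were not among the genes listed for the liver.

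The 12 genes lay between positions 175275125 and 177957386 of chromosome 2 (GRCm38/mm10), a stretch of 2.68 Mb. RefSeq lists 25 protein-coding genes inside it, of which 12 were in the liver tables: 11 of the genes described here and Gm6710, a gene of the same family whose name falls outside the rule. The remaining member, Gm14403, is annotated as a long noncoding RNA. 4 members were matched through an older symbol, since RefSeq now calls 0610010B08Rik Gm2026, Gm14420 Zfp970, Gm14431 Zfp967 and Gm14436 Zfp973. 8 members lie on the plus strand and 4 on the minus strand. In the RefSeq transcript used for each gene, a KRAB pattern was found in the product of 10 of the 11 protein-coding members and at least 1 C2H2 finger in 8 of them, and 7 had the KRAB pattern ahead of the fingers. Gm14326 had 15 fingers, Gm14325 and Gm14420 had 14 each, 0610010B08Rik and Gm14308 had 13 each, Gm14431 had 11 and Gm14436 had 6. Gm14322 had 8 fingers and no KRAB pattern, whereas the transcripts used for Gm14288, Gm14295 and Gm14440 encoded only a KRAB-bearing product of 64 residues with no finger.

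The sequence around the start of the genes was shared as well. The 250 bases ahead of the start site in the RefSeq promoter table lay wholly outside the annotated gene in 7 of the 12 members. In Gm14308, Gm14322, Gm14326 and 0610010B08Rik 111 to 152 of them did, and in Gm14295 none, since the annotated gene begins ahead of that start site. Over the bases that aligned, 191 to 250 per pair, these 250-base windows were 93.3% to 100% identical between members (66 pairs, median 95.2%). An unbroken run of 54 bases was common to all 12. That run was present, on either strand, in 28 of 32851 promoters of the same length in RefSeq (0.0852%). All 28 lie on chromosome 2, 26 of them within the stretch of the cluster. The run was found as the longest common to the members, so their 12 promoters are among the 28 by construction. It contains a CCAAT box (letters CCAAT), a motif that 33.8% of all those promoters hold on either strand. The sequences below are from the GRCm38.p6 reference, which represents the B6 strain, and are written 5′ to 3′ on the strand of the gene, with the bases of the common run in capitals. They are shown because they place the genes in the upstream types described next: Gm14420 and Gm14436 are of the first type, 0610010B08Rik of the second, and Gm14325 and Gm14403 stand apart. The window of Gm14420 is chr2:177464492-177464741 on the plus strand, that of Gm14436 chr2:176670272-176670521 on the plus strand, that of Gm14325 chr2:177840337-177840586 on the minus strand and that of Gm14403 chr2:177497976-177498225 on the plus strand. For 0610010B08Rik only the 145 bases outside the annotated gene are given, chr2:175965105-175965249 on the plus strand, which hold the first 36 bases of the run.
Gm14420: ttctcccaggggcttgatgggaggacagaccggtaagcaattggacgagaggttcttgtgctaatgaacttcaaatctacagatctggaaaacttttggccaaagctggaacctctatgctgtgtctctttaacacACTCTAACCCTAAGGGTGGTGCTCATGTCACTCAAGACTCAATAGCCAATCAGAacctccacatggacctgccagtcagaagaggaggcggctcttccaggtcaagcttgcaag
Gm14436: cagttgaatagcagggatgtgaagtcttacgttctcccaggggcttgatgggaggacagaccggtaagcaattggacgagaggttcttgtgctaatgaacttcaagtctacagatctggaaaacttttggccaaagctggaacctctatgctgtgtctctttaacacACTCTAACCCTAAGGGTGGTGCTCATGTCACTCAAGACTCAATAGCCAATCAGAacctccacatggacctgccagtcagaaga
0610010B08Rik: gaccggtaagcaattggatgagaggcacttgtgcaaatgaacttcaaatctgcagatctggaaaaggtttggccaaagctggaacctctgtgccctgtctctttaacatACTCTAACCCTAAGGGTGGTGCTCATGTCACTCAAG
Gm14325: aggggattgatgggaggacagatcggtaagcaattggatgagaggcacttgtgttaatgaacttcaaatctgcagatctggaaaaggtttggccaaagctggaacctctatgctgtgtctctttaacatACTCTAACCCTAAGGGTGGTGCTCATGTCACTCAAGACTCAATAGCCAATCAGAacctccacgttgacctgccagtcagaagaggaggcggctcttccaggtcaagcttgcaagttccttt
Gm14403: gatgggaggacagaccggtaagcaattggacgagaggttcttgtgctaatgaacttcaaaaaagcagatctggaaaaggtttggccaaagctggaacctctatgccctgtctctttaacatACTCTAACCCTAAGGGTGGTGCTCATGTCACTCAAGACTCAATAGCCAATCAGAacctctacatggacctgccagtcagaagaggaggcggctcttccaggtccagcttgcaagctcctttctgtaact

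Linking promoters of at least 98% identity, a limit chosen after the identities were seen, gave a first type of 6 genes (Gm14288, Gm14295, Gm14420, Gm14431, Gm14436 and Gm14440) with 98.6% to 100% identity among them. A second type held 4 genes (0610010B08Rik, Gm14308, Gm14322 and Gm14326) with 97.9% to 100% identity among them, and the windows of 0610010B08Rik and Gm14308 were identical over their whole length. Gm14325 and Gm14403 reached at most 96.7% and 95.9% identity with any other member. The first type differed from the remaining genes more than its members differed from each other, with identities of 93.3% to 95.7% across that border. Both KZFPs of the study that were listed, Gm14295 and Gm14436, belong to the first type.

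**Figure D1:**
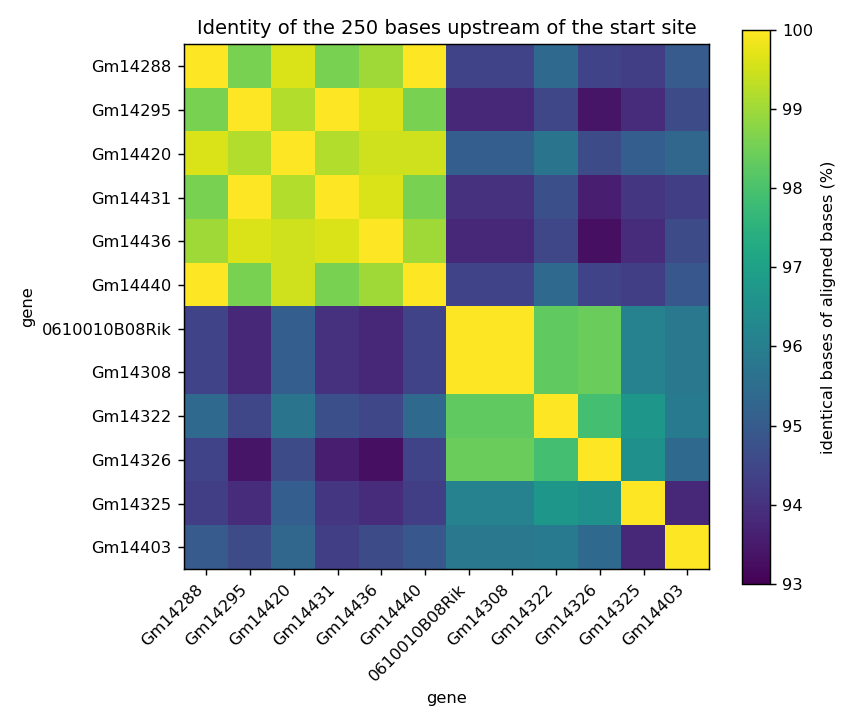
Percent identity, over the bases that aligned, of the 250 bases upstream of the RefSeq start site for each pair of the 12 genes (both axes, genes ordered by type). The 6 genes of the first type form a block of 98.6% or more, and the 4 genes of the second type form a block of 97.9% or more.

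The near identity of these genes bears on every value below. The authors aligned the reads with at most 1 reported location per read, so a read that matches several copies equally well was assigned to a single copy. For 6 of the 12 members (Gm14288, Gm14308, Gm14431, Gm14436, Gm14440 and 0610010B08Rik) every exonic stretch of 150 bases in the transcript used had an identical copy elsewhere in the B6 reference genome. The share was 69.8% for Gm14322, 55.5% for Gm14295, 39.0% for Gm14325, 36.4% for Gm14326, 23.0% for Gm14420 and 0 for Gm14403. Copies of these 150-base stretches lay within the cluster or 1 Mb to either side of it. 0610010B08Rik and Gm14308 were the closest pair: 95.4% of the 150-base exonic stretches of each occurred in the exons of the other, and their predicted proteins were identical over all 498 residues. All 72 stretches of Gm14288, whose transcript used here is only 428 bases long, occurred in exons of Gm14440. Conversely, 2.38% of the stretches of Gm14440 occurred in exons of Gm14288. The search covered exact copies in the B6 reference only, so it cannot exempt Gm14403 or Gm14420 from misplaced reads of near copies. The part of read placement in the results was not tested. The levels and listed frequencies of all members are therefore uncertain as values of the single gene. Fewer cells expressing a gene and less RNA per cell cannot be told apart in these whole-liver samples.

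**Figure D2:**
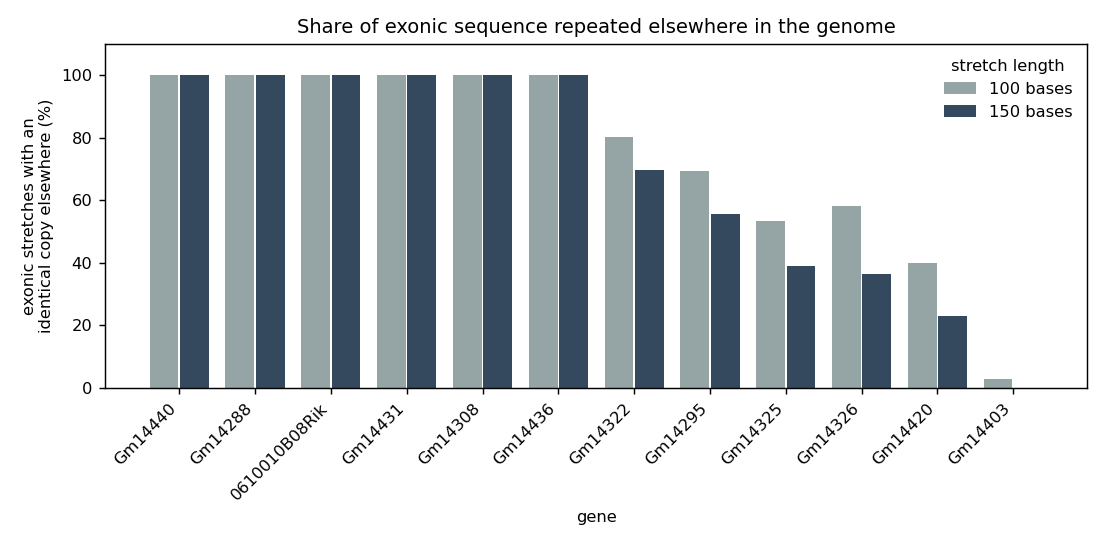
Percent of all exonic stretches of 100 bases (light bars) and 150 bases (dark bars) of each member that have an identical copy elsewhere in the mm10 genome. 6 genes reach 100% at both lengths, and Gm14403 has 2.66% at 100 bases and none at 150.

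Expression of the members was low to moderate. Their mean FPKM over the 4 mice ran from 3.66 to 20.9 with a median of 6.04, against a median of 11.5 over all 8797 listed genes and of 4.59 over 126 other zinc finger genes (named Zfp, Zkscan, Zscan or Zik), and 8 of the 12 lay above the latter. The lowest mean FPKM in the tables was 2.50. Of the 6 hepatocyte markers, 5 were listed. Cyp2e1, a cytochrome P450 of hepatocytes, was listed at an FPKM of 0 in both MSM-mother mice and at 4876 and 6541 in the B6-mother mice, although a B6-allele frequency was listed for it in all 4, so an FPKM of 0 in these tables need not mean that no reads were present. No member was listed at 0 in any mouse. The summed FPKM of the other 4 hepatocyte markers was 13313 and 12734 in the MSM-mother mice and 9270 and 11652 in the B6-mother mice. Markers of cholangiocytes, lymphocytes and proliferating cells were not listed. The summed FPKM of the Kupffer cell markers (4 of 6 listed) was 146 and 128 in the MSM-mother mice and 177 and 166 in the B6-mother mice, and that of sinusoidal endothelium (5 of 5) was 119 and 113 against 123 and 131. The stellate cell markers (3 of 5) summed to 105 and 89.6 against 74.4 and 83.8. The crosses did not overlap in any of these sums. Hepatocyte markers without Cyp2e1 and stellate markers were higher, and Kupffer cell and endothelial markers lower, in the MSM-mother mice. With Cyp2e1 the hepatocyte sum was 13313 and 12734 against 14146 and 18192, the other direction. Of the single markers, Cps1, C1qa, Lyve1, Clec4g, Oit3, Reln and Rgs5 overlapped between the crosses, and the others did not. Over all listed genes, 23.0% had both MSM-mother mice above both B6-mother mice and 19.4% below. The part of cell composition in the results was not tested. Summed FPKM of the 3 erythroid markers was 133 and 159 in replicate 1 of the MSM-mother and B6-mother mice, and 45.2 and 51.4 in replicate 2. In the same order, Hba-a1 was at 124 and 136 in replicate 1 and 36.0 and 23.6 in replicate 2. Alas2 was at 6.63 and 8.69, then 6.21 and 4.67. Hbb-bs differed by cross instead, at 2.13 and 3.02 in the MSM-mother mice and 14.3 and 23.1 in the B6-mother mice. The sum of FPKM over all listed genes was 529024 to 671875, and scaling factors by the median ratio were 0.988 to 1.03.

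Gm14420, a KZFP gene with 14 fingers whose 150-base exonic stretches mostly had no identical copy elsewhere, was the member with the highest mean. Its FPKM was 17.6 and 37.7 in the MSM-mother mice and 12.8 and 15.4 in the B6-mother mice (mean 20.9 ± 11.4, SD, n = 4). Replicate 2 of the MSM-mother mice was thus far above the other 3, and both MSM-mother mice were above both B6-mother mice. Gm14403, the noncoding member with no shared 150-base stretch, had an FPKM of 8.73 and 12.8 in the MSM-mother mice and 7.29 and 7.30 in the B6-mother mice (9.03 ± 2.60). The order of the mice was similar to that of Gm14420, with the same MSM-mother mouse on top.

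Of the KZFPs that the study considered, Gm14295 had an FPKM of 10.7 and 10.2 in the MSM-mother mice and 7.29 and 6.93 in the B6-mother mice (8.79 ± 1.96). Here the mice of a cross lay close together and the crosses did not overlap. The second, Gm14436, had 6.77 and 11.8 in the MSM-mother mice and 5.40 and 6.44 in the B6-mother mice (7.61 ± 2.87). The crosses did not overlap either, but the gap between the lower MSM-mother mouse and the higher B6-mother mouse was small.

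The other genes with upstream sequence of the first type were Gm14288, Gm14431 and Gm14440. Gm14288 had an FPKM of 8.08 and 6.49 in the MSM-mother mice and 8.86 and 6.39 in the B6-mother mice (7.46 ± 1.21), and its crosses overlapped. Gm14431, with 11 fingers, had 4.95 and 9.65 against 4.26 and 4.14 in the same order (5.75 ± 2.63). Gm14440 had 4.24 and 6.58 against 3.33 and 3.72 (4.47 ± 1.45). In Gm14431 and Gm14440 replicate 2 of the MSM-mother mice was again the highest, and neither gene overlapped between the crosses.

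Among the genes of the second type, Gm14308 had an FPKM of 5.98 and 8.28 in the MSM-mother mice and 5.55 and 5.53 in the B6-mother mice (6.33 ± 1.31). Its near copy 0610010B08Rik had 5.11 and 6.34 against 5.06 and 4.67 (5.30 ± 0.725), with a gap of the lower MSM-mother mouse to the higher B6-mother mouse that was small beside the spread within the crosses. Gm14322, the member with fingers and no KRAB pattern, had 3.47 and 4.83 against 3.05 and 3.70 (3.76 ± 0.763), and its crosses overlapped. Gm14326, which has the most fingers among the members, had 3.73 and 4.28 against 3.24 and 3.40 (3.66 ± 0.459). Gm14325, with 14 fingers, had 3.73 and 4.43 against 3.42 and 3.51 (3.77 ± 0.459). The last 2 genes were near each other in every mouse and did not overlap between the crosses.

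In the order of mean FPKM, from Gm14420 through Gm14403, Gm14295, Gm14436, Gm14288, Gm14308, Gm14431, 0610010B08Rik, Gm14440, Gm14325 and Gm14322 to Gm14326, each gene overlapped its neighbour in range over the 4 mice, so that neighbours in the order were not separated by their ranges. Within mice, Gm14420 was above Gm14403 in 4 of 4, by a mean of 11.8 FPKM (SD of the difference 8.86). The other neighbours differed by 0.0104 to 1.18 FPKM on average and kept their order in at most 3 of 4 mice.

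**Figure D3:**
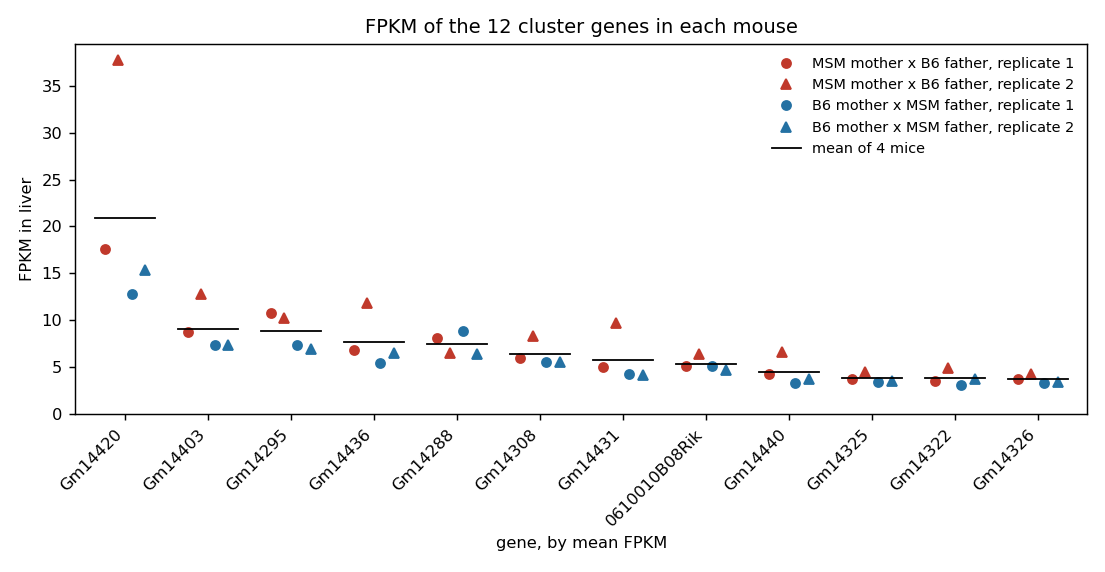
FPKM (y axis, linear) of each of the 12 genes (x axis, by mean FPKM) in the 4 mice, with crosses by colour, replicates by shape and the mean of 4 mice as a line. Gm14420 reaches 37.7 in replicate 2 of the MSM-mother mice, and 10 of the 12 genes have their highest value in that mouse.

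The comparison between the reciprocal crosses asks whether the level of these genes depended on which parent was MSM. In 10 of the 12 members both MSM-mother mice were above both B6-mother mice, and in none below. Over all listed genes the former held for 23.0% and the latter for 19.4%, and for 19.8% of the other zinc finger genes the MSM-mother mice were above. Among the 7 other listed genes within 1 Mb of the cluster, 4 (Nelfcd, Slmo2, Gm6710 and Etohi1) had both MSM-mother mice above both B6-mother mice. The 10 members are not independent observations, since they share reads and the same 4 mice. The highest value was that of replicate 2 of the MSM-mother mice in 10 of the 12 members, against 21.5% of all genes and 37.3% of the other zinc finger genes (47 of 126). Without that mouse, the remaining MSM-mother mouse was above both B6-mother mice in 10 of 12 members, a relation that held for 47.1% of all genes. FPKM summed over the members was 83.1 and 123 in the MSM-mother mice and 69.5 and 71.1 in the B6-mother mice, and without Gm14420 it was 65.5 and 85.7 against 56.8 and 55.8.

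No member passed the test between the crosses. In limma on log2(FPKM + 1), with Benjamini-Hochberg adjustment over 8797 genes, 0 of 12 members and 4 genes in all (0.0455%), all lower in the MSM-mother mice, had an adjusted p under 0.05. At an unadjusted p under 0.05 the counts were 3 of 12 members and 780 of 8797 genes. The estimated differences of the members, MSM mother minus B6 mother, had a median of 0.39 on this log2 scale and were above 0 in 11 of 12, whereas the median over all genes was 0.02, with 54.1% above 0. The 7 genes within 1 Mb had a median of 0.27, with 5 above 0, and Slmo2 had a difference of 0.44 (SE 0.11, adjusted p 0.433). Gm14295 had the lowest p, with a difference of 0.50 (SE 0.11, unadjusted p 0.00346, adjusted p 0.350). The difference was largest in Gm14420, at 0.84 (SE 0.34, adjusted p 0.561), and amounted to 0.61 in Gm14431 (SE 0.27, adjusted p 0.578), 0.53 in Gm14436 (SE 0.24, adjusted p 0.579) and 0.48 in Gm14403 (SE 0.18, adjusted p 0.546). The 6 other members with a positive estimate lay between 0.18 and 0.48, and Gm14288 was at -0.05 (SE 0.18, adjusted p 0.934). Several of these estimates rested on replicate 2 of the MSM-mother mice: without it they were 0.31 in Gm14420, 0.19 in Gm14431, 0.17 in Gm14436, 0.23 in Gm14403 and 0.53 in Gm14295. Without replicate 1 of that cross the estimate of Gm14420 was 1.37 and that of Gm14431 was 1.03, and no member passed the adjusted threshold in either fit. The scale understates differences of genes with a low FPKM, and with 2 mice per cross an exact permutation test cannot reach 0.05.

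**Figure D4:**
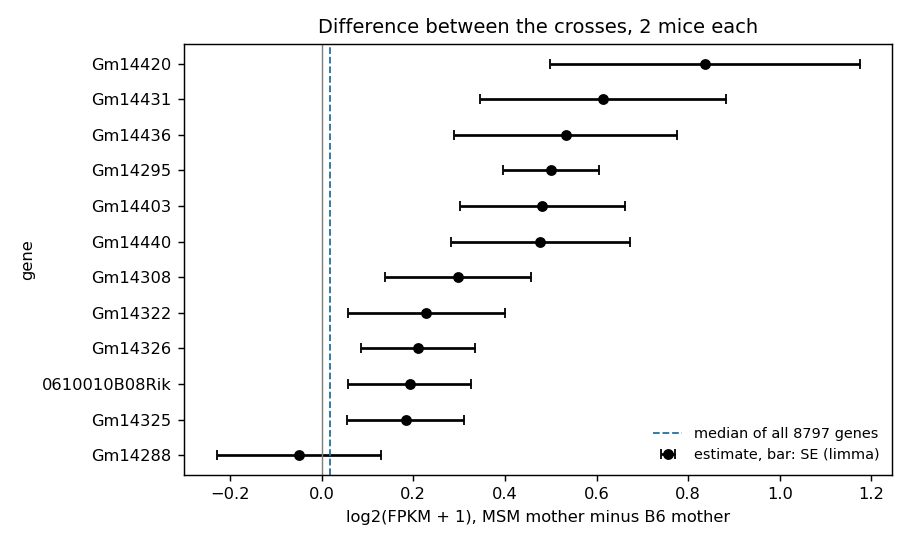
Difference in log2(FPKM + 1) between the crosses (x axis, MSM mother minus B6 mother, 2 mice each) for the 12 genes, with the standard error from limma as bars and the median of all 8797 genes (0.02) as a dashed line. The estimates run from -0.05 in Gm14288 to 0.84 in Gm14420, and none passed the adjusted threshold.

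The 3 genes outside the set whose level over the 4 mice was most like the summed FPKM of the members, out of 1079 genes of comparable level, were Trp53inp2, Agpat6 and Ccrn4l. The likeness was the root mean square difference of centred log2(FPKM + 1) values over 4 mice, 0.0612, 0.0786 and 0.0853 respectively. Trp53inp2, for example, had an FPKM of 46.0 and 63.6 in the MSM-mother mice and 39.3 and 36.5 in the B6-mother mice.

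B6-allele frequencies were listed for 9 of the 12 members, against 41.3% of all genes (3632 of 8797) and 80.0% of the listed genes on distal chromosome 2 (284 of the 355 beyond 100 Mb). None was listed for Gm14288, Gm14326 and Gm14403. A value of 0.5 means equal use of the alleles, 0 that all allele-assigned reads were from MSM and 1 that all were from B6. The deposited tables give no reads per allele, so the number of reads behind each frequency is unknown here and its precision is taken from the spread between mice.

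The MSM allele accounted for almost all assigned reads of 3 members. In 0610010B08Rik the B6-allele frequency was 0.0667 and 0.0477 in the MSM-mother mice and 0 in both B6-mother mice (mean 0.0286 ± 0.0339, SD, n = 4). Gm14308 was at 0.0345 and 0 in the MSM-mother mice and at 9.83e-07 and 1.13e-06 in the B6-mother mice (0.00862 ± 0.0172). Gm14325 was at 0.0588 and 0 in the MSM-mother mice and at 0 and 0.0526 in the B6-mother mice (0.0279 ± 0.0323). Each of these values was far under 0.5 in every mouse, whichever parent was MSM. The first pair are the near copies that share most of their exonic sequence, and should not be read as separate observations.

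Against equal use of the alleles (limma on log2 odds of frequencies limited to 0.01 to 0.99, the mean of both crosses against 0, adjusted over 3632 genes), these 3 members were called toward MSM, as were 13.6% of all genes tested. No member was called toward B6 with all 4 mice, against 22.6% of all genes. The log2 odds were -5.35 in 0610010B08Rik (SE 0.11, adjusted p 7.93e-04), -6.17 in Gm14308 (SE 0.36, adjusted p 0.00481) and -5.36 in Gm14325 (SE 0.70, adjusted p 0.0167). Frequencies under 0.01 entered this fit as 0.01, so mice below that limit show no spread among them, and estimates and SEs depend on it. With wider limits the log2 odds were -7.01 (SE 0.11), -8.68 (SE 1.00) and -7.02 (SE 1.61) in the same order. The call of Gm14325 was lost in each fit that left out 1 mouse (adjusted p 0.0535 to 0.0851), and that of Gm14308 without either B6-mother mouse (0.0549 and 0.0547). With the limits of 0.2 and 0.8 named in the methods, applied here to the unrounded mean of the cross means, the same 3 of 9 members were MSM-biased, against 1.35% of all genes (49 of 3632). None reached 0.8, against 1.84% (67 genes), and none of the 54 other zinc finger genes with a frequency was past either limit.

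A further pair of genes had means under 0.5 that did not pass the test. Gm14440 was at 0.5 and 0.187 in the MSM-mother mice and at 0.2 and 0.142 in the B6-mother mice (0.257 ± 0.164). Its log2 odds were -1.68 (SE 0.43, adjusted p 0.0622), and 1 MSM-mother mouse stood at equal use while the other 3 were near 0.2 or lower. Gm14322 was at 0.244 and 0.462 in the MSM-mother mice and at 0.188 and 0.35 in the B6-mother mice (0.311 ± 0.121). All 4 values were under 0.5, with log2 odds of -1.21 (SE 0.36, adjusted p 0.0839).

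The other 4 members had means at or above 0.5, and these include Gm14295 and Gm14436, the 2 listed genes among the KZFPs of the study. Gm14436 was at 0.8 and 0.538 in the MSM-mother mice and at 0.667 and 0.682 in the B6-mother mice (0.672 ± 0.107), above 0.5 in 4 of 4 mice, with log2 odds of 1.08 (SE 0.35, adjusted p 0.0963). The log2 odds of Gm14436 were 0.64 without replicate 1 of the MSM-mother mice and 1.52 without replicate 2. The lone mouse left in that cross adds no spread, so these fits give no further support for a bias. Gm14295 was at 0.5 in both MSM-mother mice and at 0 and 1 in the B6-mother mice (0.5 ± 0.408). Its mean of 0.5 thus joins mice of the same cross at opposite ends of the scale, and the standard error of its log2 odds was 2.57 (adjusted p 1.0). Gm14420, the member with the highest level, was at 0.667 and 0.515 in the MSM-mother mice and at 0.62 and 0.543 in the B6-mother mice (0.586 ± 0.0695), with log2 odds of 0.51 (SE 0.20, adjusted p 0.139). Gm14431 was at 0.579 and 0.476 in the MSM-mother mice and at 0.727 and 0.4 in the B6-mother mice (0.546 ± 0.142), on both sides of 0.5 in each cross, with log2 odds of 0.29 (SE 0.41, adjusted p 0.605).

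Frequencies of the members scattered more between mice than those of most genes. The SD over 4 mice had a median of 0.107 over the 9 members, against 0.0272 over all genes, 0.0361 over the other zinc finger genes and 0.0369 over the 1031 genes with a mean FPKM of 3 to 7. It was above 0.1 in 5 of 9 members, against 7.16% of all genes and 7.27% of those 1031 genes. A frequency of exactly 0 in 1 or more mice was listed for 4 of 9 members, against 1.79% of all genes.

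By upstream type, the 5 genes of the first type with a frequency had means of 0.257 to 0.672, and the 3 genes of the second type had means of 0.00862 to 0.311. Gm14325, outside both types, was at 0.0279. This grouping was made after the values were seen and is given without a test.

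**Figure D5:**
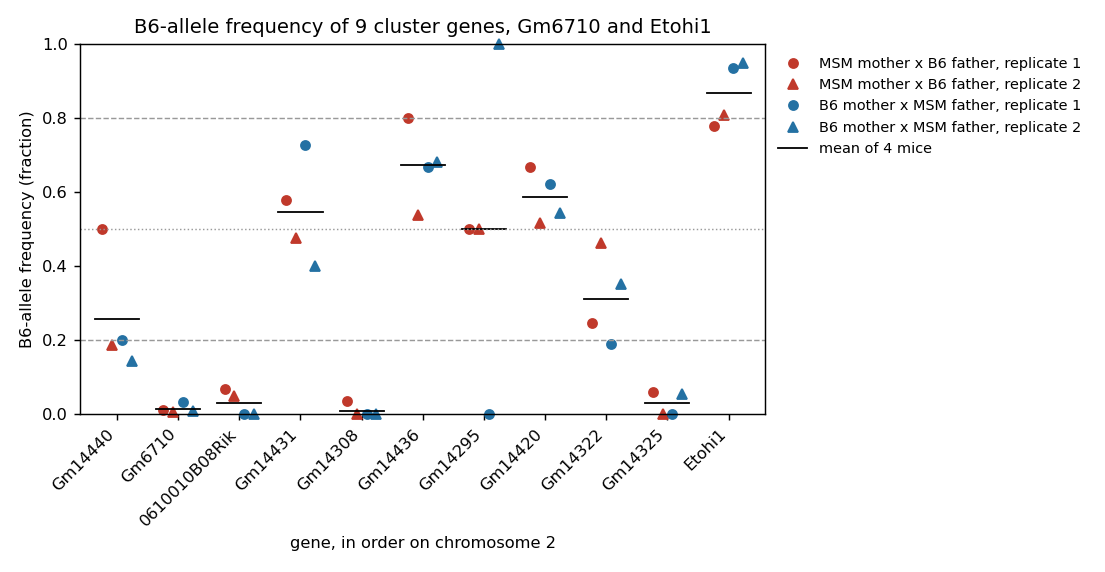
B6-allele frequency (y axis, a fraction from 0 to 1) in the 4 mice for the 9 members that have one and for Gm6710 and Etohi1, in the order of the genes on chromosome 2, with the mean of 4 mice as a line, equal use dotted and the limits of 0.2 and 0.8 dashed. 0610010B08Rik, Gm14308, Gm14325 and Gm6710 lie near 0 in every mouse, Etohi1 lies at 0.778 or more in every mouse, and Gm14295 spans the whole axis.

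The frequency did not pass the test between the crosses in any of the 9 members, and 3 of 3632 genes did (0.0826%). At an unadjusted p under 0.05 the counts were 1 of 9 members and 190 of 3632 genes. That member was 0610010B08Rik, with a difference in log2 odds, MSM mother minus B6 mother, of 2.57 (SE 0.21, adjusted p 0.341). It was also 1 of 9 members in which both MSM-mother mice were above both B6-mother mice, a relation seen in no other member and in 18.4% of all genes. The difference is between values near 0 and values at 0, and its size moved with the lower limit of 0.01 set on the frequency: with limits closer to 0 and 1 it was 5.90 (SE 0.22, adjusted p 0.0803).

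The nearest listed genes of the same family gave values at both ends. Gm6710, which lies inside the cluster and has 16 fingers, had an FPKM of 9.31 and 12.8 in the MSM-mother mice and 8.77 and 8.98 in the B6-mother mice. Its B6-allele frequency was 0.0112, 0.00518, 0.0312 and 0.00838 in the same order, and its log2 odds were -6.17 (SE 0.33, adjusted p 0.00457), called toward MSM like the 3 members above. Its values under 0.01 were likewise raised to 0.01 for the fit. Etohi1 (now Zfp971), just beyond the last member, carries the same run of 54 bases upstream and had an FPKM of 6.64 and 8.43 against 5.45 and 6.09. Its frequency was 0.778 and 0.808 in the MSM-mother mice and 0.935 and 0.947 in the B6-mother mice, called toward B6 with log2 odds of 2.98 (SE 0.09, adjusted p 0.00192). Genes of this family within and beside the cluster were therefore listed near 0, near 0.5 and at 0.778 or more. Every 150-base exonic stretch of Gm6710 and 20.8% of those of Etohi1 had an identical copy elsewhere, and 18.8% of the stretches of 0610010B08Rik and of Gm14308 occurred in exons of Gm6710.

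The 5 remaining listed genes within 1 Mb, which encode no zinc finger proteins, lie before the cluster and had mean frequencies of 0.432 to 0.706. Gnas, the imprinted gene of the stimulatory G protein alpha subunit, was at 0.389 and 0.407 in the MSM-mother mice and at 0.557 and 0.594 in the B6-mother mice, with no call against equal use (adjusted p 0.387) or between the crosses (adjusted p 0.601). Atp5e, a subunit of the mitochondrial ATP synthase, was called toward B6 (0.684 to 0.731 over the 4 mice, log2 odds 1.27, SE 0.08, adjusted p 0.00489). Ctsz, the lysosomal protease cathepsin Z, was called toward MSM (0.407 to 0.464, log2 odds -0.40, SE 0.04, adjusted p 0.0122). The transcription elongation factor gene Nelfcd (0.459 to 0.552, adjusted p 0.994) and Slmo2 (0.458 to 0.484, adjusted p 0.0598) were not called. The lowest frequency of these 5 genes in any mouse was 0.389.

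The proteins through which KZFPs act were also listed in the liver: 33 of a list of 40 corepressors and effectors, with a summed FPKM of 471 to 488 over the 4 mice. None of the 33 passed the test of FPKM between the crosses, and their median difference was -0.06 on the log2(FPKM + 1) scale, against 0.02 over all genes. Both MSM-mother mice were above both B6-mother mice in 7 of the 33 and below in 9, against 23.0% and 19.4% of all listed genes. Trim28, the corepressor that KRAB domains bind, had an FPKM of 21.0 and 20.0 in the MSM-mother mice and 25.4 and 24.2 in the B6-mother mice, a difference of -0.27 (SE 0.11, adjusted p 0.578). Setdb1, the methyltransferase that Trim28 recruits, had 8.21 and 9.44 against 9.97 and 8.74, a difference of -0.08 (SE 0.13, adjusted p 0.847). Of the 11 with a B6-allele frequency, 3 were called toward B6 and none toward MSM, against 22.6% and 13.6% of all genes. They were Cbx5, a heterochromatin protein (0.604 to 0.630, log2 odds 0.68, SE 0.04, adjusted p 0.00495), Rbbp4, a histone-binding subunit of deacetylase complexes (0.585 to 0.673, log2 odds 0.68, SE 0.11, adjusted p 0.0235), and Morc3, a nuclear ATPase (0.601 to 0.699, log2 odds 0.80, SE 0.12, adjusted p 0.0203). Trim28 and Setdb1 had no frequency listed.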

How the data were processed

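Liver mRNA of 4 F1 mice was sequenced from poly(A)-selected, strand-specific libraries. To make the deposited FPKM, the authors ran Trim Galore and then TopHat2, with SNP positions of mm10 masked and at most 1 location kept per read. The authors also deposited the B6-allele frequency, a fraction, from reads separated by allele with SNPsplit and counted with Cuffdiff. Tool versions are not given in the sources used here. The deposited values hold no reads per gene or allele.

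Groups came from the sample labels. No 2 mice of a cross had identical files. Differences were tested with limma 3.58.1 (R 4.3.3), two-sided, in a fit over all listed genes with cross as the term, on log2(FPKM + 1), requiring a mean FPKM of 1, and on log2 odds of frequencies limited to 0.01 to 0.99. The threshold was an adjusted p of 0.05. Tests were tried on simulated data. Tables and plots used Python 3.11.15, numpy 2.4.6, pandas 2.3.3, matplotlib 3.10.9 and Biopython 1.88.

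Positions, promoters and transcripts were from RefSeq for GRCm38.p6. Fingers and KRAB patterns were searched in translated RefSeq coding sequences, in place of a protein table, and identity was counted over aligned positions. Exonic stretches of 100 and 150 bases were searched on both strands of all chromosomes, without masking SNP sites, and stretches across splice junctions were left out. The members and gene lists were chosen with earlier results of these data known. The genes named are the members, the KZFPs of the study, listed genes within 1 Mb, Trim28, Setdb1 and called corepressors, and the 3 genes most like the members. Pseudocounts, filters, scaling, limits, a replicate block and omission of each mouse were tried as alternatives.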

Additional observations from a re-analysis of the deposited data

How the results depend on the processing

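Among the members, the count called by FPKM between the crosses (0) did not change with a pseudocount of 0.1, with a mean FPKM of at least 5, under either scaling, or when 1 mouse was left out (0 to 0). Dropping the filter could not change it, since the lowest mean FPKM listed, 2.50, is above the minimum of 1. With the replicate number as a block it was 2, Gm14420 (0.84, adjusted p 0.00189) and Gm14431 (0.61, adjusted p 0.0274), and 285 genes in all were called. The labels do not say that equal numbers mark a shared litter or day, and replicate deviations correlated across genes with r of 0.00375 for log2 FPKM and 0.147 for log2 odds, so the numbers were not treated as pairs. The erythroid marker sums followed the replicate number, as did Hba-a1 and Alas2, whereas Hbb-bs separated by cross. Whether equal numbers share a batch was not tested. For the frequency against equal use, 2 to 4 members were called under every alternative, replicate block (3) included, of 9 tested or 6 where a mean FPKM of at least 5 was required. The block lost Gm14325 (adjusted p 0.0604) and added Gm14322 (adjusted p 0.0266). Wider limits on the frequency lost Gm14325 (adjusted p 0.0501), and untransformed frequencies added Gm14440 (adjusted p 0.0493). A mean FPKM of at least 5 took Gm14325 out of the test. Of all 3632 genes, 775 were called with the block, 1286 with wider limits and 1421 with untransformed frequencies. With a mean FPKM of at least 5, 1144 of 2836 genes were called. 2 to 4 members were called when 1 mouse was left out, a fit in which the lone mouse of a cross is assumed to vary like the others. 0610010B08Rik was called in each. The lone mouse adds no spread, so a call that appears only after such an omission is no support for a bias. Log2 odds of Gm14436 were 0.64 without replicate 1 of the MSM-mother mice and 1.52 without replicate 2. Those of Gm14440 were -2.21 without replicate 1 of that cross. Those of Gm14295 were 3.31 without replicate 1 of the B6-mother mice and -3.31 without replicate 2. Over all genes 1316 were called, and 181 to 514 without 1 mouse. Omission of 1 mouse turned the sign of uncalled estimates: log2 FPKM of Gm14288 (-0.26 to 0.16), log2 odds against equal use of Gm14431 (-0.21 to 0.79), and log2 odds between the crosses of Gm14322 (-0.12 to 1.28), Gm14325 (-1.23 to 1.40), Gm14420 (-0.39 to 0.52), Gm14431 (-1.25 to 0.75) and Gm14436 (-0.83 to 0.95, and -0.00495 for the untransformed frequency). No member was called between the crosses by frequency under any alternative run. By the thresholds of the methods 2 to 4 members were MSM-biased and none B6-biased. In the main setting the shares of all genes were 1.35% and 1.84%, and they were not counted under the alternatives. After scaling by the median ratio, 9 of 12 members rather than 10 had both MSM-mother mice above both B6-mother mice (21.6% of all genes). The reads per allele are not in the tables used, so how far their number limits the frequencies near 0, or that of Gm14295, was not tested.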
